A study of Mus musculus with 10 samples.

Results

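Heat shock proteins of the cytosol and the mitochondria were followed in mouse liver after activation of the death receptor CD95 (Fas). The 10 genes were taken by symbol: the cytosolic HSP70 chaperones Hspa1a, Hspa1b and Hspa8, their cochaperones Dnajb1, Hsph1 and Bag3, the cytosolic HSP90 Hsp90aa1, the small heat shock protein Hspb1, and the mitochondrial chaperonin pair Hspd1 and Hspe1. All 10 were found once among the 38922 genes of the expression tables. The livers came from wildtype male C57BL/6N mice, an inbred strain, aged 6 weeks. In the CD95-Ab group, 5 mice received an intraperitoneal injection of a CD95-activating antibody at 0.5 µg/g body weight, and in the saline group 5 mice received the same volume of saline. All animals were killed 6 h later, and each gave its own library of whole-liver RNA, read as pairs of 100 bp.

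Heat shock proteins are molecular chaperones that bind unfolded proteins and help them to fold, or hold them until they can be folded or degraded. In the cytosol, J-domain proteins such as DNAJB1 deliver clients to HSP70, nucleotide exchange factors such as HSPH1 and BAG3 release them, and HSP90 acts later on nearly folded clients. HSPD1 and its lid HSPE1 form the folding chamber of the mitochondrial matrix. Under proteotoxic stress, the transcription factor HSF1 binds heat shock elements, which are alternating inverted units of GAA and TTC in the promoters of such genes, and liver cells are known to induce the stress-inducible members strongly after heat.

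Promoter stretches with at least 1 pair of such units are shown for genes whose comparison or shared layout is described below. They show how differently these pairs are placed among the heat shock genes studied here. A window from 250 bases before to 50 bases after the annotated start was held by the RefSeq promoter table (GRCm38.p6) for 8 of the 10 genes, and none is shown for Hspa8 and Hsp90aa1. The search was for the pairs GAANNTTC and TTCNNGAA, each of which reads the same on both strands. Neighbouring pairs may overlap by sharing a unit. Only exact letters were sought, so units that differ from GAA or TTC were missed. In the lines that follow, capitals mark these pairs, positions count from the annotated start, and each sequence is given 5′ to 3′ on the strand of its gene.
Hspa1a: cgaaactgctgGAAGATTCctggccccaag
Hspb1: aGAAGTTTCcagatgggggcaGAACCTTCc
Bag3: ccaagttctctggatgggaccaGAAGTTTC
Hsph1: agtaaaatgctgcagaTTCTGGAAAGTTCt
Hspe1: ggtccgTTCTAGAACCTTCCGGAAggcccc

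The Hspa1a stretch (chr17:34972242-34972271, minus strand) held 1 pair from position -104 to -97, and the same 30 bases stood before Hspa1b (chr17:34959324-34959353, minus strand). Both windows of 300 bases had 296 bases in common, and the 4 differences were C44T, T47C, T249G and C276T, written as the Hspa1a base, the position from 1 at the 5′ end of the window, and the Hspa1b base. Before Hspb1 (chr5:135887801-135887830, plus strand), 2 separate pairs lay between positions -117 and -90. These stretches of Hspa1a, Hspa1b and Hspb1 lay outside any gene of GENCODE mouse release 21.

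In Bag3 (chr7:128523603-128523632, plus strand), the only pair lay after the start, from 43 to 50, and 17 of the 30 bases fell in an untranslated part of a Bag3 exon. In Hsph1 (chr5:149636287-149636316, minus strand), a run of more than 2 alternating units lay from 37 to 49 after the start, in an untranslated exon, and a further, separate pair lay before the start, outside the stretch shown. Hspe1 and Hspd1 are divergent neighbours whose annotated 5′ ends overlap by 112 bases, and 1 stretch served both windows. It lay from -89 to -72 before Hspe1 (chr1:55088053-55088082, plus strand) and, read on the other strand, from -144 to -127 before a second RefSeq start of Hspd1, and it held 3 overlapping pairs. By GENCODE, that stretch is untranslated exon of Hspd1.

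At least 1 pair was found for 7 of the 8 genes, and Dnajb1 had no exact match in its windows. Among all 27025 genes in the promoter table, 17.0% had such a pair. A run of 3 or more units was found for 3 of the 8 (Hsph1, Hspd1 and Hspe1), against 0.662% of all genes. These counts are not of independent sequences, since Hspd1 and Hspe1 share 1 stretch and the stretches of Hspa1a and Hspa1b are identical. None of the 8 had the letters TATAAA on either strand, which 15.7% of all genes had, and 5 of the 8 had CCAAT, against 41.1%. These matches describe the letters in the windows and do not show binding.

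Levels of different genes were compared only as FPKM, the value deposited by the authors that is scaled by transcript length and by the total of each library. In saline mice, Hspa8, the constitutive cytosolic HSP70, had the highest FPKM (385 ± 68.7, SD, n = 5). The mitochondrial pair followed, with an FPKM of 146 ± 33.7 for Hspd1 and 133 ± 8.395 for Hspe1. These neighbours in the order overlapped, since Hspd1 ranged from 87.6 to 168 and Hspe1 from 123 to 142.

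Hsp90aa1, the stress-inducible cytosolic HSP90, stood alone at an FPKM of 34.2 ± 7.75, below the lowest Hspd1 value and above every value of the genes beneath it. The next 5 genes formed a chain in which neighbours overlapped, with a mean FPKM of 7.60 for Bag3, 6.72 for Dnajb1, 6.03 for Hspb1, 5.12 for Hspa1b and 4.68 for Hsph1. Hspa1a, the other inducible HSP70, was lowest at an FPKM of 0.616 ± 0.413, and its highest saline value of 1.04 was under the lowest value of the others (1.97, Hsph1). After CD95-Ab, Hspb1 came next below Hsp90aa1 with a mean FPKM of 17.0, just above Bag3 at 15.8, and the ranges of these 2 genes overlapped.

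Between groups, expression was compared on the deposited expected counts, the reads that RSEM assigned to each gene, scaled to a TMM-adjusted total of 1000000 (CPM). Differences are log2 fold changes of CD95-Ab against saline with their standard errors (SE), tested with the quasi-likelihood test of edgeR across the 13719 genes with enough counts. A gene was called higher or lower when its p-value, adjusted by the Benjamini-Hochberg method over all tested genes (FDR), was 0.05 or less. Total counts ranged from 25965699 to 62097636 in saline mice and from 27480796 to 44962196 after CD95-Ab.

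In these livers the response was broad: 47.3% of all tested genes were called (25.4% higher, 22.0% lower), and in 33.3% the values of the groups did not overlap. Summed CPM of 8 hepatocyte markers were 103326 to 125873 in saline mice and 49046 to 86524 after CD95-Ab, with none of the markers at 0, but only 2 of the 8 were called (both lower). Most of that sum was albumin (Alb), which took 7.72% to 9.65% of all counts in saline mice and 2.88% to 5.44% after CD95-Ab. Summed CPM of neutrophil markers were 4.19 to 10.6 in saline mice and 110 to 452 after CD95-Ab. The noncoding RNAs Rn7sk, Rmrp, Rpph1, Malat1 and Neat1, listed for RNA quality, summed to 414 to 890 CPM in saline mice and 1135 to 2326 CPM after CD95-Ab. RNA integrity itself was not measured here. Summed CPM of endothelial, stellate, cholangiocyte, lymphocyte and erythroid markers were also higher without overlap. Of the 8 stellate markers tested, however, only 4 were called higher and 1 was called lower. Kupffer cell markers (133 to 455 against 278 to 594) overlapped. In whole-liver RNA, fewer cells of a type and less RNA per cell cannot be told apart, and the part of these shifts in the differences below was not tested. On the second principal component, which held 9.84% of the variance, saline 5 and CD95-Ab 4 stood apart from the other 8 mice (45.9 and 48.9 against -28.0 to 4.54), and they also had the highest shares of mitochondrial transcripts (21.9% and 22.1%, against 7.56% to 18.04%). The labels name no batch for any mouse.

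Of the 10 heat shock genes, all were tested, 3 were called higher after CD95-Ab (Hsp90aa1, Hspb1 and Bag3), 1 was called lower (Hspa1b) and 6 did not pass. The share called, 40%, was close to the 47.3% of all tested genes. In 3 of the 10 (Hsp90aa1, Hspb1 and Bag3) the groups did not overlap, all of them higher after CD95-Ab, compared with 18.6% of all tested genes that were higher and 14.7% that were lower without overlap. None reached a log2 fold change of 2 in either direction, a size that 6.59% of all tested genes reached upward and 1.11% downward together with the FDR threshold. The median log2 fold change was 0.22 for the 10 genes and 0.01 for all tested genes. Without saline 5 and CD95-Ab 4, the 3 genes called higher kept log2 fold changes of 1.12 for Hsp90aa1, 1.59 for Hspb1 and 1.10 for Bag3, each past the threshold.

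**Figure D1:**
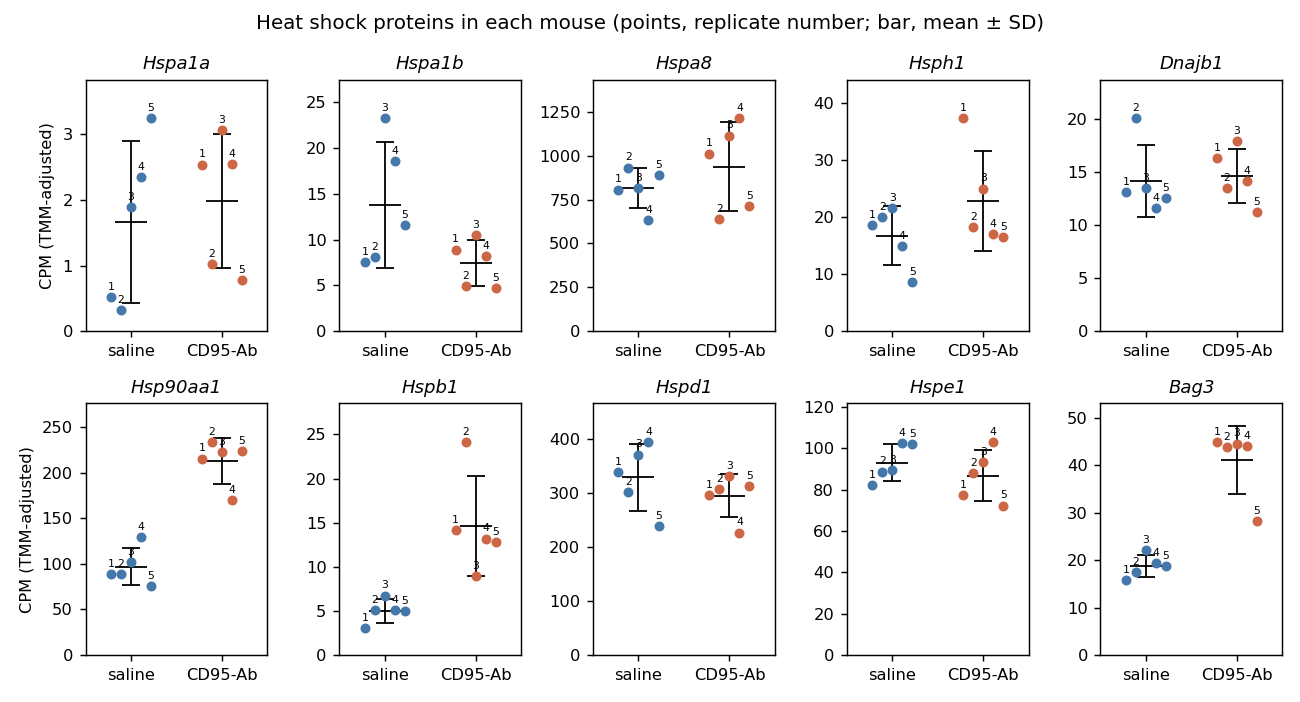
CPM (TMM-adjusted, linear axes from 0) of the 10 heat shock genes in each mouse, with saline in blue, CD95-Ab in orange, replicate numbers beside the points and bars for the mean ± SD (n = 5 per group). In the panels of Hsp90aa1, Hspb1 and Bag3 every CD95-Ab point lies above every saline point, and in the other 7 panels the groups overlap.

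Hspa8, the housekeeping HSP70 that folds newly made proteins, had the highest mean FPKM of the 10 genes in both groups. Its CPM in saline mice 1 to 5 were 808, 932, 814, 632 and 888. After CD95-Ab they were 1013, 640.0, 1115, 1215 and 712, so that 3 CD95-Ab mice exceeded every saline mouse and the other 2 lay within the saline range. The log2 fold change was 0.20 (SE 0.20, 95% interval -0.23 to 0.64), which did not pass the test (edgeR, adjusted p = 0.428).

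Hspa1b, 1 of the inducible HSP70 genes, was called lower. Its saline CPM were 7.50, 8.09, 23.2, 18.5 and 11.6, and after CD95-Ab its CPM were 8.89, 4.90, 10.5, 8.15 and 4.72. The groups overlapped: saline 3 and 4 were the highest of all mice, every CD95-Ab mouse was below the saline median, and 2 were below the lowest saline mouse. Mean CPM were 13.8 ± 6.87 and 7.43 ± 2.54 (SD, n = 5 each), with a log2 fold change of -0.89 (SE 0.34, 95% interval -1.64 to -0.15, edgeR adjusted p = 0.0475). This call stood close to the threshold and was lost in 11 of 22 alternatives. Among them were the omission of saline 3 (log2 fold change -0.63, adjusted p = 0.129), saline 4 (0.0962), saline 5 (0.0513), CD95-Ab 1 (0.0575), CD95-Ab 2 (0.109), CD95-Ab 4 (0.0548) or CD95-Ab 5 (0.105), where the values in brackets are edgeR adjusted p.

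Hspa1a encodes nearly the same protein as Hspa1b and is its neighbour on chromosome 17, 9951 bases away. Its saline CPM were 0.518, 0.326, 1.89, 2.35 and 3.24, from 11 to 175 counts a mouse. After CD95-Ab its CPM were 2.54, 1.02, 3.07, 2.54 and 0.775, entirely within the saline range. Saline mice spread 9.95-fold from lowest to highest, the widest of the 10 genes, and the log2 fold change of 0.24 (SE 0.58, 95% interval -1.03 to 1.50, edgeR adjusted p = 0.760) leaves room for changes of more than 1 log2 unit in either direction.

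How reads were divided between these copies matters for both values. Of all 100-base windows of the annotated Hspa1b transcripts, 49.9% also occurred in Hspa1a, and 47.1% of those of Hspa1a occurred in Hspa1b. Hspa1a took 3.87% to 21.9% of the counts of the pair in saline mice and 14.1% to 23.8% after CD95-Ab. When the pair was summed, CPM were 15.5 ± 7.56 in saline mice and 9.42 ± 3.56 after CD95-Ab, and the log2 fold change of -0.72 (SE 0.36) did not pass (edgeR adjusted p = 0.116).

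Dnajb1, the J-domain protein that partners inducible HSP70, did not differ detectably. Its CPM were 13.1, 20.1, 13.5, 11.6 and 12.6 in saline mice and 16.3, 13.5, 17.9, 14.1 and 11.2 after CD95-Ab. Saline 2 was the highest of all 10 mice and CD95-Ab 5 the lowest, and the log2 fold change was 0.04 (SE 0.17, 95% interval -0.33 to 0.42, edgeR adjusted p = 0.855). With totals unadjusted or scaled by upper quartiles the sign of this small value turned (-0.06 and -0.03).

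Hsph1, the HSP110 nucleotide exchange factor of HSP70, had CPM of 18.6, 19.98, 21.7, 14.97 and 8.62 in saline mice. After CD95-Ab its CPM were 37.4, 18.3, 25.0, 17.0 and 16.6. Only CD95-Ab 1 and 3 exceeded the saline range, and saline 5 was far below the other mice. The log2 fold change was 0.45 (SE 0.28, 95% interval -0.16 to 1.06) and did not pass (edgeR adjusted p = 0.203). Without CD95-Ab 1 it was 0.20, with an adjusted p of 0.540.

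Bag3, a cochaperone that couples HSP70 and small heat shock proteins to selective autophagy, was called higher. The 5 saline mice lay close together at CPM of 15.8, 17.5, 22.1, 19.3 and 18.7. Of the CD95-Ab mice, 4 were nearly equal at CPM of 45.0, 43.9, 44.6 and 44.1, and the fifth was at 28.2, still above every saline mouse. Means were 18.7 ± 2.33 and 41.2 ± 7.25 CPM (SD, n = 5), and the log2 fold change was 1.14 (SE 0.15, edgeR adjusted p = 8.08e-05). The call held in all 21 alternatives, in which the log2 fold change ranged from 1.06 to 1.25.

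Hsp90aa1 was called higher by almost the same log2 fold change. Its CPM in saline mice were 88.6, 88.8, 102, 130 and 75.3, and after CD95-Ab they were 215, 234, 223, 169 and 224. Even CD95-Ab 4, the lowest of its group, exceeded saline 4, the highest saline mouse. The mean was 96.8 ± 20.6 CPM in the saline group against 213 ± 25.2 CPM (SD over 5 mice each). This is a log2 fold change of 1.14 (SE 0.16, 95% interval 0.79 to 1.49, edgeR adjusted p = 0.000133). In all 21 alternatives it stayed past the threshold, with values from 1.06 to 1.24.

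Hspb1 (HSP25 in the mouse), an ATP-independent holding chaperone that also binds actin filaments, showed the steepest difference among the 10 genes. Saline CPM were 3.01, 5.04, 6.73, 5.12 and 4.93. After CD95-Ab the CPM were 14.2, 24.2, 8.92, 13.2 and 12.8, with CD95-Ab 2 highest and CD95-Ab 3 nearest to the saline mice. The groups did not overlap, means were 4.97 ± 1.32 and 14.6 ± 5.69 CPM (SD, n = 5), and the log2 fold change was 1.56 (SE 0.27, 95% interval 0.98 to 2.14, edgeR adjusted p = 0.000558). The call held in all 21 alternatives (1.31 to 1.69), the lowest without CD95-Ab 2. A processed copy, Hsp25-ps1, shares 44.0% of the 100-base windows of Hspb1 but had 0 counts in every mouse, so how reads of that part were assigned is not visible in these tables.

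The mitochondrial chaperonin did not change detectably. Hspd1 (HSP60) had CPM of 339, 301, 371, 395 and 239 in saline mice and 296, 308, 331, 226 and 313 after CD95-Ab. The lowest mouse of each group was the 1 that stood apart on the second principal component, saline 5 and CD95-Ab 4. The log2 fold change was -0.16 (SE 0.16, 95% interval -0.51 to 0.20, edgeR adjusted p = 0.449), and without both of those mice it was -0.18 (adjusted p = 0.214).

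Hspe1 (HSP10) had CPM of 82.1, 88.7, 89.5, 103 and 102 in saline mice and 77.3, 87.9, 93.3, 103 and 72.3 after CD95-Ab. These ranges overlapped almost fully, and the log2 fold change was -0.10 (SE 0.13, 95% interval -0.38 to 0.18, edgeR adjusted p = 0.546). As FPKM, which carry no TMM adjustment, the same mice separated, with 123 to 142 in saline mice and 101 to 122 after CD95-Ab. Summed FPKM of all genes differed between libraries (633191 to 852882). The separation of Hspe1 was seen without the TMM adjustment and not with it, and its cause was not tested. With unadjusted totals the log2 fold change was -0.19 and did not pass (edgeR adjusted p = 0.218).

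**Figure D2:**
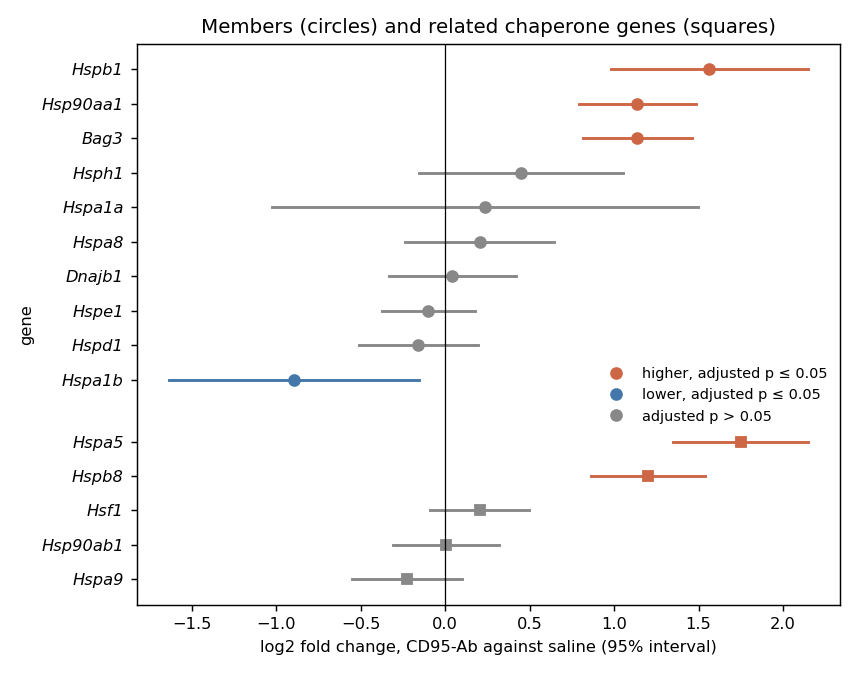
Log2 fold changes of CD95-Ab against saline with 95% intervals (lines) from edgeR for the 10 heat shock genes (circles) and 5 related chaperone or regulator genes (squares), coloured by call at an adjusted p of 0.05. Hspb1, Hsp90aa1 and Bag3 lie above 1, Hspa1b lies at -0.89 with an interval that ends at -0.15, and the intervals of the other 6 members include 0.

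Ratios within a mouse do not depend on how totals are scaled. For 4 ratios of counts (0.5 added to each), groups were compared by a two-sided exact permutation test on mean log2 ratios, with p-values adjusted over the 4. The smallest p that 5 mice against 5 allow is 0.00794. Inducible Hsp90aa1 to constitutive Hsp90ab1 was 0.169, 0.163, 0.182, 0.241 and 0.198 in saline mice. After CD95-Ab that ratio was 0.415, 0.415, 0.410, 0.391 and 0.454, higher in all 5 mice without overlap and with very little spread. The ratio was 2.21-fold higher (exact permutation p = 0.00794, adjusted 0.0317).

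Hsp90ab1, the constitutive cytosolic HSP90, hardly moved itself, with 509 ± 72.6 CPM without and 510 ± 50.1 CPM with the antibody (SD, n = 5). Its log2 fold change was 0.00 (SE 0.14, edgeR adjusted p = 0.986) and took either sign with other scalings (down to -0.09 with unadjusted totals).

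Inducible to constitutive HSP70, taken as Hspa1a plus Hspa1b over Hspa8, went the other way without passing the test. This ratio was 0.00995, 0.00905, 0.0309, 0.0331 and 0.0167 in saline mice and 0.0113, 0.00928, 0.0122, 0.00882 and 0.00773 after CD95-Ab. Saline 3 and 4 were highest and the remaining mice overlapped. The log2 difference was -0.83 (exact permutation p = 0.0952, adjusted 0.190). Leaving out saline 2 gave -1.06 (exact permutation p = 0.0476, unadjusted), while without saline 3 or 4 it was -0.62 or -0.59 (p = 0.190 for both, exact permutation).

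Hspd1 to Hspe1, the subunits of 1 machine, was 4.13, 3.39, 4.15, 3.85 and 2.34 in saline mice and 3.83, 3.50, 3.54, 2.20 and 4.33 after CD95-Ab. Saline 5 and CD95-Ab 4 had the lowest ratio of their groups by a wide gap, and the log2 difference between groups was -0.04 (exact permutation p = 0.778, adjusted 0.778). Leaving out both mice gave -0.03 (exact permutation p = 0.743). Whether counting used the strand is not given in the sources used here, so reads from the overlapping 5′ ends of these genes could have been assigned to either. Dnajb1 to Hsph1, a delivery to a release factor of HSP70, differed by -0.39 on the log2 scale (exact permutation p = 0.222, adjusted 0.296), with overlapping groups.

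**Figure D3:**
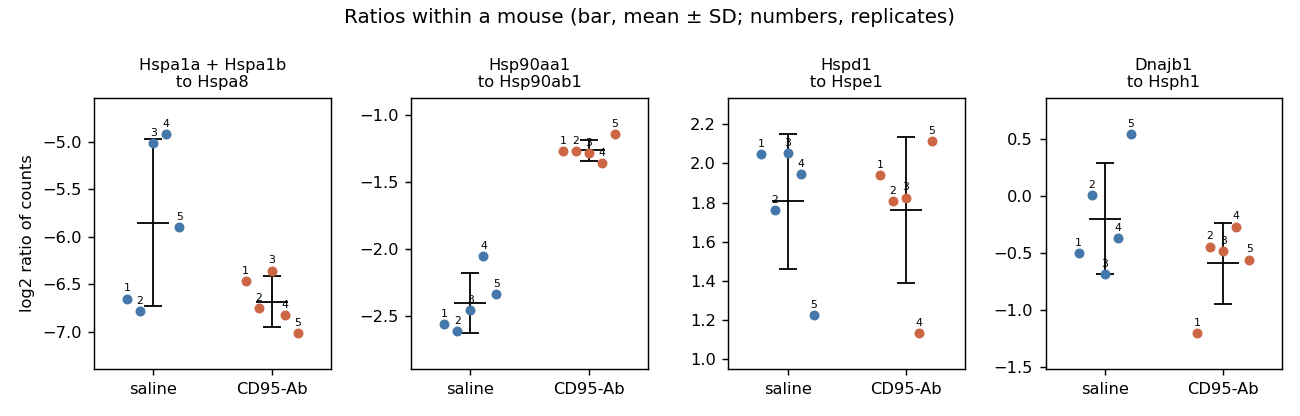
Log2 ratios of counts within each mouse for 4 pairs of chaperones, with saline in blue, CD95-Ab in orange, replicate numbers beside the points and bars for the mean ± SD (n = 5). Only in the panel of Hsp90aa1 to Hsp90ab1 do the groups lie apart, with saline mice between 0.163 and 0.241 and CD95-Ab mice between 0.391 and 0.454 as ratios, and in that of Hspd1 to Hspe1 saline 5 and CD95-Ab 4 lie far below the rest.

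Within groups, the 10 genes did not rank the mice alike. CD95-Ab 5 was the lowest of its group for 6 genes (Hspa1a, Hspa1b, Hsph1, Dnajb1, Hspe1 and Bag3), and CD95-Ab 3 was the highest for 4. Among saline mice, saline 3 was highest for 4 genes and saline 1 lowest for 4. The spread within a group, as the highest over the lowest CPM, ran from 1.25 for Hspe1 to 9.95 for Hspa1a in saline mice and from 1.38 for Hsp90aa1 to 3.96 for Hspa1a after CD95-Ab.

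The genes with the most similar course over the 10 mice were sought for Hspa1b, Hspa8 and Hspd1, by the root mean square difference of centred log2 CPM. For Hspa1b these were Eci2 (0.32), Omd (0.33) and Acot2 (0.35). For Hspa8 they included Nnmt (0.17) and Rpl14 (0.18). For Hspd1 they were closer, with Dars (0.07), Rpp14 (0.07) and Ddx19a (0.07).

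Other chaperones and cofactors of the cytosol and the mitochondria were grouped in 8 lists of 88 genes, of which 81 were tested. Of these, 13 were called higher and 13 lower, which is 32.1% and so under the 47.3% of all tested genes, and their median log2 fold change was -0.09. None of the 6 tested genes of the other HSP70 and HSP110 family was called. The larger changes were single genes in different lists.

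Among 12 other J-domain proteins, 5 were called higher and 1 lower, with a list median of 0.14. Dnajb5, a close relative of Dnajb1, was 2.54, 3.17, 2.23, 2.54 and 5.53 CPM in saline mice and 8.47, 7.10, 7.44, 9.28 and 9.17 CPM after CD95-Ab, a log2 fold change of 1.36 (SE 0.24, edgeR adjusted p = 0.000648). The groups did not overlap, although saline 5 was well above its group. The other 4 called higher were small: Dnajc21 (log2 fold change 0.47), Dnajc2 (0.40), Dnajc5 (0.38) and Dnajb6 (0.30). With unadjusted totals none of these 4 passed, Dnajc2 was also lost without saline 4 (edgeR adjusted p = 0.0543), and Dnajb6 was lost in 13 of 21 alternatives. Dnajc7, an adaptor between HSP70 and HSP90, was called lower at -0.32 and held in all 21 alternatives. Dnaja1, a farnesylated partner of HSPA8, had a log2 fold change of -0.16 (edgeR adjusted p = 0.366). Dnajc5, Dnajb6 and Dnajc7 are named here after their values were seen.

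Of 8 other BAG proteins and HSP70 cofactors, Bag4 was the only 1 called in the full comparison and, unlike Bag3, it was lower. Bag4, a silencer of death domains of TNF receptor 1, was 23.4, 21.2, 30.7, 24.9 and 21.9 CPM in saline mice and 11.4, 11.3, 13.7, 11.8 and 17.7 CPM after CD95-Ab, all 5 below the saline range. Its log2 fold change was -0.89 (SE 0.15, edgeR adjusted p = 0.000641), and it held in all 21 alternatives. Without CD95-Ab 4 the list had 2 called genes.

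Around HSP90, a list of 16 genes made of Hsp90ab1 and HSP90 cochaperones gave 3 genes higher and 3 lower, with a median of -0.04. Unc45a, a chaperone of myosin, had a log2 fold change of 0.64 (edgeR adjusted p = 0.00737), and Cdc37l1, a relative of the kinase cochaperone Cdc37, had -0.68 (edgeR adjusted p = 0.00249). Both held in all 21 alternatives. Chordc1, a zinc-binding cochaperone, was called higher at 0.33 but not without saline 4 (edgeR adjusted p = 0.0590) or with unadjusted totals (0.232). The immunophilins Fkbp4 (-0.37) and Ppid (0.35) and the phosphatase Ppp5c (-0.28) passed narrowly, and each was lost when any of 6 or 7 mice was left out. Ppid and Ppp5c are named here after their values were seen. Stip1, which bridges HSP70 and HSP90, was at 0.28 and did not pass (edgeR adjusted p = 0.0777). Without saline 1, 3 or 4, or CD95-Ab 1 or 3, only 3 genes of the list were called.

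Of 8 other small heat shock proteins, 3 had enough counts to be tested, and Hspb8 was called higher. HSPB8, the small heat shock protein that forms a complex with BAG3, was at 137, 132, 145, 157 and 216 CPM in saline mice. After CD95-Ab it was at 392, 351, 390.2, 364 and 312 CPM, far above every saline mouse. The log2 fold change was 1.201 (SE 0.16, edgeR adjusted p = 7.77e-05), close to the 1.14 of Bag3. Per length, Hspb8 was more abundant than Hspb1, with an FPKM of 90.9 ± 8.95 in saline mice and 201 ± 30.9 after CD95-Ab. The 5 untested small heat shock proteins had at most 18 counts in any mouse.

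Among 18 other mitochondrial chaperones and proteases, 6 were called lower and 1 higher, with a median of -0.24. Grpel2, a nucleotide exchange factor of mitochondrial HSP70, was lower in every mouse after CD95-Ab, at 18.9 ± 4.80 CPM against 47.7 ± 4.53 (SD, n = 5) (log2 fold change -1.34, edgeR adjusted p = 4.90e-05). The prohibitin Phb2 (-0.63) and the inner membrane protease Oma1 (-0.43) were also called lower, the first in all 21 alternatives and the second not without saline 1 or 4 or CD95-Ab 1 or 3 (edgeR adjusted p up to 0.0705). Yme1l1, an inner membrane protease named after its value was seen, was the 1 called higher, at 0.35, and was lost in 11 of 21 alternatives. Hspa9, the mitochondrial HSP70 that feeds HSPD1, was 397 ± 55.3 CPM in saline mice and 339 ± 50.1 CPM after CD95-Ab (log2 fold change -0.23, edgeR adjusted p = 0.237). Without CD95-Ab 1, 2 or 5, 4 genes of the list were called.

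Of the 14 tested subunits of the cytosolic chaperonin TRiC and of prefoldin, 3 were called higher and none lower. The prefoldin subunits Pfdn4 and Vbp1 had log2 fold changes of 0.75 (edgeR adjusted p = 0.00573) and 0.58 (edgeR adjusted p = 0.00434), both without overlap of the groups. Cct3 was at 0.46 (edgeR adjusted p = 0.0137). With unadjusted totals only 1 gene of this list was called.

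The regulators themselves were examined next. Hsf1, the main heat shock transcription factor, was 9.18 ± 0.812 CPM in the saline group against 10.6 ± 1.86 CPM (SD over 5 mice), and its log2 fold change of 0.20 did not pass (edgeR adjusted p = 0.233). Its activity is set by release from chaperones and by trimer formation, which these data do not measure. Hsf2, which can pair with HSF1, was 18.1, 23.0, 15.1, 19.5 and 14.1 CPM in saline mice and 7.48, 7.07, 5.25, 8.32 and 12.2 CPM after CD95-Ab. All CD95-Ab mice were below the saline range (log2 fold change -1.15, SE 0.21, edgeR adjusted p = 0.00100). Hsf4 was also called lower, at -1.03 (SE 0.21, edgeR adjusted p = 0.00176), from 4.54 ± 0.913 to 2.23 ± 0.581 CPM without overlap.

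Chaperones of the endoplasmic reticulum (ER) served as the neighbouring compartment. Of 17 tested ER genes, 10 were called higher and none lower (58.8%, against 47.3% of all tested genes called in either direction and 25.4% called higher), with a median log2 fold change of 0.62. Hspa5 (BiP), the HSP70 of the ER, had a mean of 335 ± 45.2 CPM in the saline group and of 1127 ± 245 CPM after CD95-Ab (SD over 5 mice; log2 fold change 1.75, edgeR adjusted p = 1.75e-05). Hyou1, the HSP110 relative of the ER, was at 2.03 (edgeR adjusted p = 4.50e-05), and the stress-induced Creld2 was at 1.80 (edgeR adjusted p = 0.000430). These named genes had the largest changes of the list, which ran down to 0.07, with 7 genes not called. In the same mice the cytosolic Hspa8 was at 0.20, Hsph1 at 0.45 and the mitochondrial Hspa9 at -0.23. The cytosolic Hspb1 was at 1.56 and Hsp90aa1 at 1.14. The difference between compartments was not tested.

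**Figure D4:**
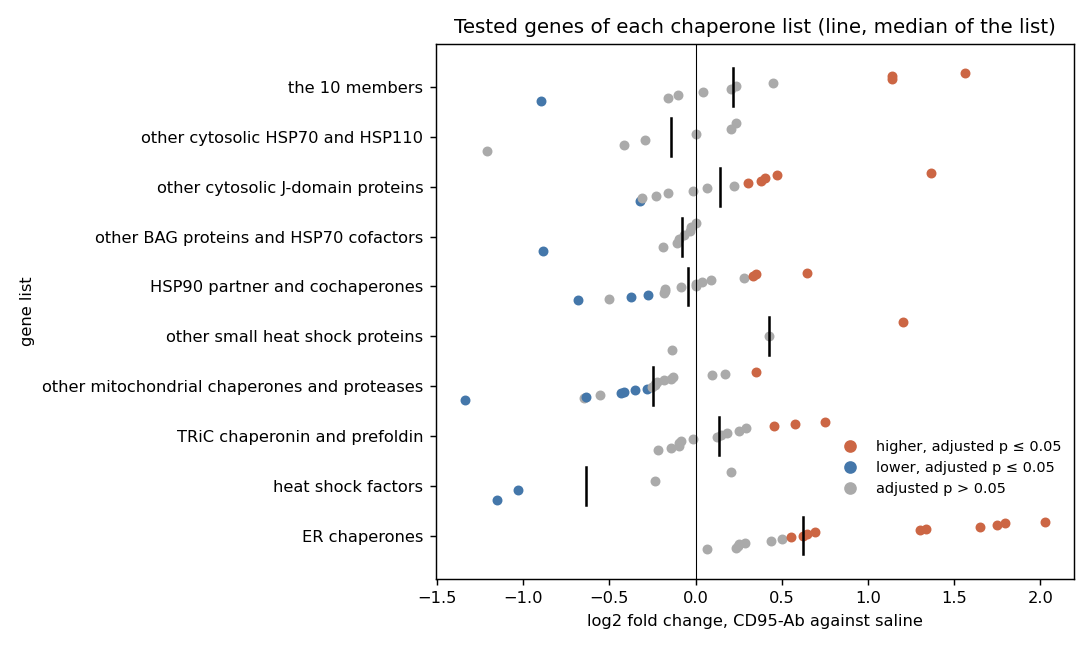
Log2 fold changes of every tested gene (points) in the 10 heat shock genes, 8 related lists and the ER chaperones, coloured by call at an adjusted p of 0.05, with a vertical line at each list's median. Called points stand beside points not called in most lists. Among the 17 ER chaperones 10 are called higher, none lower and 7 not called. The lists of TRiC and prefoldin (3 higher) and of other small heat shock proteins (1 higher) also hold no point called lower. In the list of other cytosolic HSP70 and HSP110 no point is called in either direction.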

How the data were processed

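Liver RNA of 10 mice was compared, 5 injected with saline and 5 with CD95-Ab. Groups and replicate numbers came from the sample labels, which call the mice biological replicates. The 10 heat shock genes, the related lists and the tests were chosen with earlier results of these data known. The expected counts that the authors deposited were made with RSEM 1.2.19, which shares out reads that fit several genes, and are not normalized. They are whole numbers as deposited. The authors also deposited FPKM, in which RSEM corrects for length and library total, and these were used for levels between genes. The annotation release and genome build used by the authors are not given in the sources used here for mouse (the methods name a human release). Symbols and positions came from GENCODE mouse release 21 (GRCm38), which named 37606 of the 38922 genes, and promoter sequences from RefSeq. No mouse had a count for 15804 of the genes.

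Genes were kept by filterByExpr (minimum count 10), totals scaled by TMM, and groups compared with group as the only term in edgeR 4.0.16 (R 4.3.3). The SE was derived from the F statistic. Summaries and exact tests used scipy 1.17.1 and pandas 2.3.3 under Python 3.11.15. At the measured totals, 3 counts are 0.0483 to 0.116 CPM before TMM scaling, for counting error only. No 2 mice of a group agreed within sampling noise (20 pairs, chi-square per degree of freedom from 42.4 to 554). On simulated counts of 13545 genes, the test recovered 69% of 100 genes changed by 1 log2 unit and 98% of 100 changed by 2. Unchanged genes made up 5.65% of its calls. Only these genes were changed, all drawn from well-counted genes, whereas 47.3% of tested genes were called in the data. The shares recovered therefore need not hold for the data.

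Named genes are the 10 members, the 3 called genes with the largest changes of each list, 8 regulators and partners whatever their values, and for 3 members the 3 genes with the most similar course. Of the genes that this rule named, 1 is not reported here. Alternatives were DESeq2 1.42.0, other scalings and filters, an FDR of 0.01, a prior count of 2, the replicate number as a block, each mouse left out, and the Hspa1a and Hspa1b counts summed. Chosen after seeing the data were the omission of saline 5 with CD95-Ab 4 and a fit with the second principal component as covariate. Antibody blots, proteins and survival were not analysed here.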

Additional observations from a re-analysis of the deposited data

Results flagged for a closer look

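In each of 90 groups of 5 mice (the named genes and the 4 ratios), the highest or lowest mouse was called far from the others when its gap to the nearest mouse exceeded 0.71 of the range of its group (Dixon's criterion). Chance alone calls about 1 group in 20, and 9 of the 90 were called here. Among the heat shock genes, saline 2 stood high for Dnajb1 (20.1 CPM), CD95-Ab 4 stood low for Hsp90aa1 (169 CPM), and CD95-Ab 5 stood low for Bag3 (28.2 CPM). In the last 2 genes the distant mouse was the CD95-Ab mouse nearest to the saline range and still above it.

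In related genes, saline 5 stood high for Dnajb5 (5.53 CPM) and low for Hsp90ab1 (381 CPM). CD95-Ab 4 stood high for Pfdn4 (8.15 CPM) and for Hsf1 (13.9 CPM) and low for Vbp1 (9.73 CPM). CD95-Ab 3 stood high for Dnajb6 (71.2 CPM). Of the 9 distant values, 6 came from saline 5 or CD95-Ab 4, the mice that stood apart on the second principal component.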

How the results depend on the processing

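Hsp90aa1, Hspb1 and Bag3 kept their direction and their side of the threshold in all 21 alternatives each. Hspa1b lost its call in 11 of 22, among them a minimum of 10 counts in every mouse (adjusted p = 0.0525), its sum with Hspa1a (0.116) and the omission of saline 5 with CD95-Ab 4 (0.0671). The number of heat shock genes called was 4, and 3 to 4 with any mouse left out; all tested genes called were 6495, and 5616 to 6977; called genes of the 8 related lists were 26, and 19 to 30, and at an FDR of 0.01 they were 13. Apart from single mice left out, the sign turned only in 3 genes that were not called: Hspa1a summed with Hspa1b (-0.72), Dnajb1 with unadjusted totals (-0.058) or upper quartiles (-0.034), and Hsp90ab1 with DESeq2 (-0.0065), its size factors (-0.0065), unadjusted totals (-0.088), upper quartiles (-0.071), no filter (-0.031) or without both mice (-0.041). With each mouse left out, the log2 fold change of Hspa1a ranged from -0.031 to 0.65, of Dnajb1 from -0.044 to 0.20 and of Hsp90ab1 from -0.088 to 0.044. The log2 difference in ratio of Hspd1 to Hspe1 ranged from -0.19 to 0.11, of Hspa1a plus Hspa1b to Hspa8 from -1.06 to -0.59, of Hsp90aa1 to Hsp90ab1 from 1.09 to 1.23 and of Dnajb1 to Hsph1 from -0.51 to -0.20. The cause was not tested for any of these.

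Both groups use replicate numbers 1 to 5, but the labels do not say that same-numbered mice are paired. Deviations of same-numbered mice correlated from -0.27 to 0.26 (mean 0.04), and those of differently numbered mice had a mean of -0.006. Over only 5 pairs, these correlations cannot decide whether the mice were paired. With the replicate block, 5987 genes were called, 4 heat shock genes and 18 of the related lists. Hsp90aa1 to Hsp90ab1, at 1.14 in this pairing, had a p of 0.0625 (exact sign permutation), the smallest that 5 pairs allow. Depth limits Hspa1a most, at 11 to 175 counts a mouse.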
